A study of Mus musculus with 12 samples.

Results

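The genes described here are 40 genes that fold, modify and quality-control proteins in the endoplasmic reticulum (ER), or that signal when this capacity is exceeded. They were chosen by gene symbol, all 40 were found among the 55304 genes of the table, and all 40 passed the filter on low values that left 24736 genes for testing. By role they comprised 6 stress sensors and transcription factors (*Xbp1*, *Atf4*, *Atf6*, *Ern1*, *Eif2ak3* and *Ddit3*), 3 targets of ATF4 (*Trib3*, *Asns* and *Chac1*), and 8 lectin chaperones and oxidoreductases (*Calr*, *Canx*, *Pdia3*, *Pdia4*, *Pdia6*, *P4hb*, *Ero1l* and *Ero1lb*). A further 4 encode other luminal stress proteins (*Sdf2l1*, *Manf*, *Creld2* and *Hyou1*) and 7 serve ER-associated degradation (*Herpud1*, *Edem1*, *Syvn1*, *Sel1l*, *Derl1*, *Derl2* and *Derl3*). The remaining members were 7 subunits of the translocon and its associated complex (*Sec61a1*, *Sec61b*, *Sec61g*, *Ssr1*, *Ssr2*, *Ssr3* and *Ssr4*) and 5 of the signal peptidase and oligosaccharyltransferase (*Spcs1*, *Spcs2*, *Sec11c*, *Dad1* and *Ostc*).

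The study asked how the transcriptome of corticotrophs, the pituitary cells that make ACTH, was altered by the synthetic glucocorticoid dexamethasone (DEX) and after its withdrawal. Cells carrying an eGFP transgene under *Pomc* control were sorted from the anterior pituitary of *Pomc*-eGFP mice, and 4 groups of 3 pools were sequenced, each pool from 2 or 3 mice that had shared a cage. The mice were male, carried the transgene on a C57Bl6/J background in every group, and were 8 weeks old at the start. Control mice drank plain water, DEX mice had received 2.5 µg/ml DEX in the drinking water for 4 weeks, and the other groups had the same treatment followed by 1 week or 4 weeks of plain water. According to the methods all groups were kept for the same total time, so the groups differ in when DEX was given and not in the length of the experiment. Because eGFP is driven by *Pomc*, whose reads were fewer in the DEX group, the gate need not have taken the same cells in each group.

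A secreted protein enters the ER through the SEC61 channel while it is being made, loses its signal peptide to the signal peptidase, receives its sugars from the oligosaccharyltransferase, and is folded by chaperones and by enzymes that form disulfide bonds. Misfolded chains are pulled back to the cytosol and destroyed by ER-associated degradation. When unfolded chains accumulate, the sensors IRE1 (*Ern1*), PERK (*Eif2ak3*) and ATF6 switch on the unfolded protein response, through the transcription factors XBP1, ATF4 and the cleaved form of ATF6. Endocrine cells such as corticotrophs carry a large secretory load, and POMC, the precursor of ACTH, is folded with disulfide bonds on this route.

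Pools held 7719894 to 12848078 reads on genes, and values are normalised counts, that is CPM (reads relative to the library size) after TMM scaling of the library sizes. *Pomc* took 3.80% to 8.25% of the reads in control, 0.454% to 0.997% in DEX, 4.33% to 19.997% at 1 week and 4.56% to 6.92% at 4 weeks. All 7 corticotroph markers were detected in each group, but *Gh*, the growth hormone gene of somatotrophs, held more reads than *Pomc* in 10 of the 12 libraries, so the sorted material was not corticotroph RNA alone. The corticotroph markers did not go together, since the normalised counts of *Tbx19*, a transcription factor of the lineage, were 498 to 1490 in DEX and 218 to 459 in control, and *Avpr1b*, a vasopressin receptor, was at 67.9 to 130.1 and 12.1 to 60.0. In such bulk samples fewer cells of a type and less RNA per cell cannot be told apart. Pool 2 of the 1 week group stood apart with the highest *Pomc* share and a TMM scaling factor of 0.702, against 0.863 to 1.21 in the other libraries. The melanotroph markers also summed highest there, at 176 against 71.1 to 135 elsewhere, with *Pcsk2* at 129.7. Pool 3 of the same group stood apart the other way, with the lowest *Tbx19* (39.5), *Crhr1* (12.5), *Avpr1b* (1.56) and *Gpc5* (2.67) of all libraries. Results that contrast these pools carry both differences. For members highest in pool 2 whose 1 week fold change is described in full, a fold change without that pool is also given. Control pool 3 and 1 week pool 3 were low for members with more than 5000 bases of exonic sequence. Their medians lay 0.63 and 0.61 (log2) below the mean of the other pools of their group. Genes of that length with a mean above 10 lay 0.29 and 0.06 below. In 1 week pool 3 members of 2000 to 3000 and of 3000 to 5000 bases were as low as the long members, at -0.71 and -0.64. Those of 1000 to 2000 bases lay at -0.10. The heat shock genes *Hspa1a* and *Hspa1b* were highest in control pool 3 and 1 week pool 3, at 2534 to 4118 normalised counts against 1229 or less elsewhere. They belong to 8 markers of stress during cell dissociation, of which *Junb* and *Egr1* were lowest in 1 week pool 3, at 1274 and 1596. The 8 markers summed to 17949 and 15513 in these 2 libraries, 20520 in DEX pool 3 and 13740 or less elsewhere. *Junb*, *Egr1* and *Ier2* were highest in DEX pool 3. The part of these genes in the members' values was not tested.

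No member changed past an adjusted p of 0.05. In the limma F test over the 4 groups 0 of 40 members were called, against 0.315% of all genes, and the smallest adjusted p was 0.361, for *Sec11c*. Without adjustment 4 members (10%) had a p under 0.05 in this test, as did 9.21% of all genes. None was called in DEX against control (0.121% of all genes called), 1 week against control (0%), 4 weeks against control (0%), 1 week against DEX (0.433%), 4 weeks against DEX (0.873%) or 4 weeks against 1 week (0%), with smallest adjusted p of 0.736, 1, 0.716, 0.124, 0.36 and 0.808 in turn (limma). Unadjusted, 0, 3, 2, 8, 1 and 1 members had a p under 0.05 in these 6 contrasts, that is 0%, 7.5%, 5%, 20%, 2.5% and 2.5% of the members against 6.8%, 3.79%, 6.35%, 10.8%, 9.94% and 5.47% of all genes. The members' share was thus below that of all genes in 4 of the 6 contrasts. Both edgeR tests that were run called 0 members in every comparison. DESeq2 called *Sec11c*, *Ssr4*, *Sec61g* and *Spcs1*, all 4 in 1 week against DEX, which is 10% of the members where it called 2.32% of all genes. Limma with array weights called *Sec11c*, 2.5% of the members, in the F test (4.32% of all genes) and against DEX at 1 week (2.29%) and 4 weeks (5.26%). Over all genes, the 3 comparisons with 0 calls had 938, 1570 and 1352 genes at an unadjusted p under 0.05, and 1, 0 and 0 calls in edgeR by quasi-likelihood, 51, 93 and 165 by likelihood ratio with trended dispersion, 8, 60 and 15 in DESeq2 and 4, 186 and 8 with array weights. The p-values measure the spread between these pools.

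The intervals show what these data could have missed. The 95% interval of a member's log2 fold change reached a median of 0.62 to either side, and 0.47 at its narrowest. It lay wholly within a 2-fold change in either direction for 29 of 40 members in DEX against control, but for 17 of 40 in 1 week against DEX. A missed threshold is therefore not a sign of equal levels for the other members.

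The middle of the list was level under DEX and higher after withdrawal. The median log2 fold change of the 40 members was -0.02 in DEX against control, with 19 members above and 21 below 0. It was 0.31 at 1 week against control, with 33 members above 0, and 0.22 at 4 weeks against control, with 34 above 0. The same medians over all genes were -0.02, 0.00 and 0.00. The comparisons share their control pools, so the counts at 1 and at 4 weeks are not independent. The 1 week median rested in part on a single library, since it was 0.09 without pool 2, and it was 0.43 without pool 3. At 4 weeks the median stayed between 0.16 and 0.31 with any library left out. Against DEX the medians were 0.20 at 1 week (0.07 without pool 2) and 0.22 at 4 weeks.

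**Figure D1:**
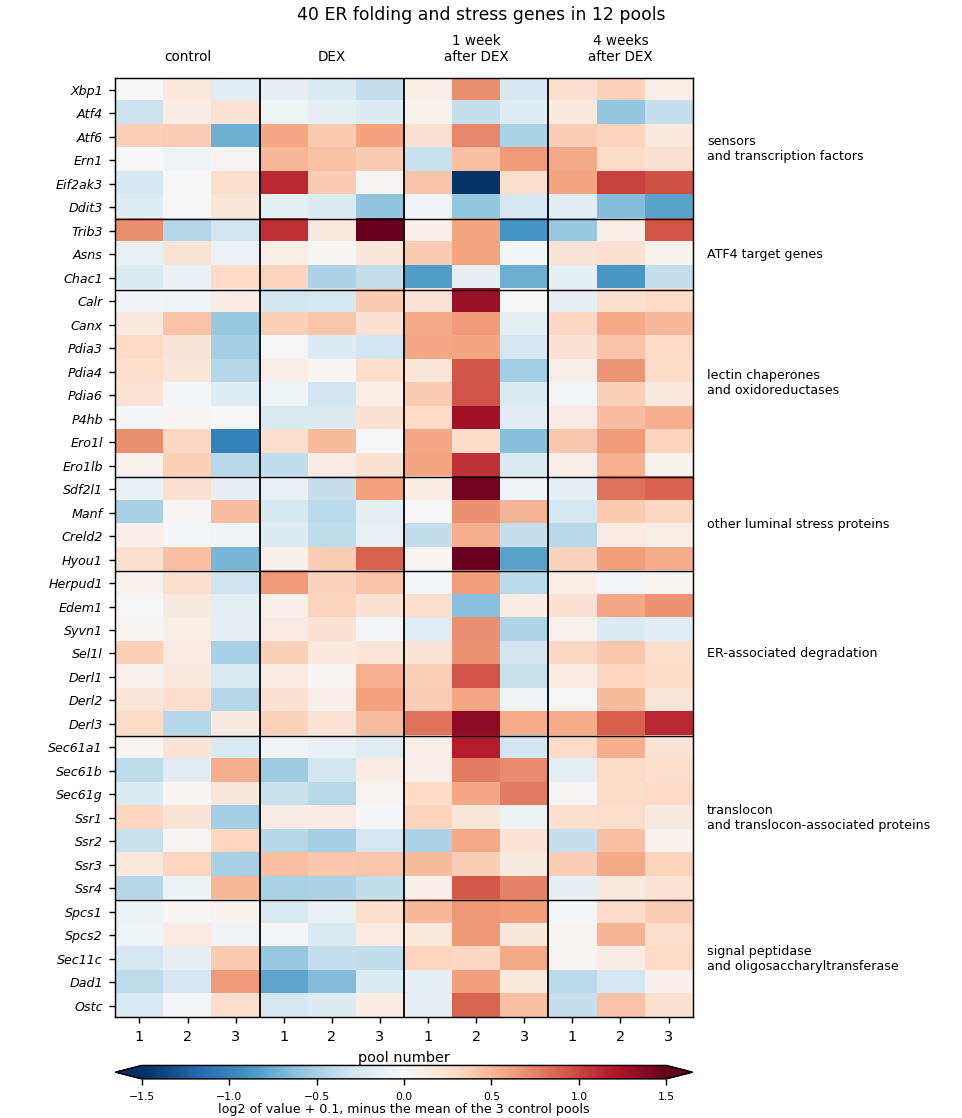
Each row is a member, grouped by role, and each column is a pool, and colour gives the log2 of the value + 0.1 minus the mean of the 3 control pools, with values past 1.5 in either direction drawn at the end of the scale. The red column is 1 week pool 2, where 35 of 40 members lay above the control mean, and its neighbour pool 3 of the same group had 15 of 40 above it.

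The promoters of 7 members hold the ER stress element, the letters CCAAT and CCACG separated by 9 bases of any kind, which is known to bind NF-Y together with ATF6. It was searched on both strands of RefSeq promoters (GRCm38.p6), from 250 bases before to 50 bases after each start. Of the 40 members 32 matched the table by symbol or synonym, with 33 promoters. The members without an entry were *Atf6*, *Manf*, *Hyou1*, *Derl1*, *Sec61a1*, *Ssr2*, *Sec11c* and *Ostc*. The element was present in 7 of 32 members (21.9%) and in 39 of 32851 promoters of the table (0.119%), and the shorter ER stress element II (ATTGG, 1 base of any kind, CCACG) was found in *Herpud1* and in 0.0365% of all promoters. The first share counts genes and the others count promoters. The members were chosen as ER folding and stress genes, so the difference in shares is no test of the members. The stretches of these 8 members are shown because this element is a known link between ER stress and such genes, and the capitals mark the letters of the elements.
*Calr* (chr8:84847050-84847118, minus strand): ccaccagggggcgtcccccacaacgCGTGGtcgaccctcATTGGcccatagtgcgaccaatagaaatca
*Canx* (chr11:50325775-50325843, minus strand): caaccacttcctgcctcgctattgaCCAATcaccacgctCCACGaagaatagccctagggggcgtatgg
*Pdia6* (chr12:17266466-17266534, plus strand): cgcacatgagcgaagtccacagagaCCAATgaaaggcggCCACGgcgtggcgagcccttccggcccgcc
*Ero1lb* (chr13:12565657-12565725, plus strand): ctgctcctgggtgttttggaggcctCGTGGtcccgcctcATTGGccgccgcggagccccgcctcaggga
*Creld2* (chr15:88819495-88819563, plus strand): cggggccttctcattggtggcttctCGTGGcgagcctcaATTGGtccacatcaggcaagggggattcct
*Syvn1* (chr19:6046507-6046575, plus strand): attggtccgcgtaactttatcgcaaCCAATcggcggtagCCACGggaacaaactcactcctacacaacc
*Derl3* (chr10:75893217-75893285, plus strand): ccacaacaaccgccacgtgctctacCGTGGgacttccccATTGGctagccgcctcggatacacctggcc
*Herpud1* (chr8:94386292-94386412, plus strand): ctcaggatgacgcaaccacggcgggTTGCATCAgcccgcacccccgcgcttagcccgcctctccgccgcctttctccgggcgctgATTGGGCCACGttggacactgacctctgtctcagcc

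*Calr*, *Ero1lb*, *Creld2* and *Derl3* carry the element on the opposite strand, where it reads CGTGG and ATTGG. *Herpud1* also holds the core of the composite site for ATF4 and C/EBP (TGATGCAA), on the opposite strand and marked as well, which *Chac1* held among the members and 0.895% of all promoters held. The XBP1 core TGACGTGG was in 0 of 32 members and in 0.676% of all promoters. Of these 8 members 7 had the highest of their 12 values in 1 week pool 2, the exception being *Herpud1*. Of the 24 members searched without finding either form 11 did, and of the 8 members without an entry 7 did. A match in the letters is a description of the promoter and does not show that a factor bound it.

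Levels differed widely between members. Per kilobase of exonic sequence the levels averaged over the 12 libraries were highest for *Pdia3*, a disulfide isomerase that works with calreticulin and calnexin, at 375 normalised counts per kb, followed by *P4hb* at 303 and *Calr* at 212, which share its role, and by *Spcs1* at 147. They were lowest for *Edem1*, *Eif2ak3* and *Ern1*, at 2.59, 3.00 and 3.02 per kb, and the oxidases *Ero1l* and *Ero1lb* were also low, at 5.21 and 3.21.

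*Calr* (chromosome 8, 84841850 to 84846934, GRCm38, minus strand) encodes calreticulin, a lectin chaperone of the ER lumen. Its normalised counts were 513, 502 and 567 in control pools 1 to 3, 435, 445 and 683 in DEX, 602, 1296 and 523 at 1 week and 481, 619.7 and 643 at 4 weeks. All groups overlapped, and a single library, 1 week pool 2, stood at 1.90 times the next highest value. *Calr* had a log2 fold change of 0.54 in 1 week against DEX (95% interval -0.18 to 1.26, adjusted p = 0.613, limma), and of 0.14 without that pool.

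*P4hb* (chromosome 11, 120560298 to 120573253, minus strand), a protein disulfide isomerase, held 719.7, 733 and 728 normalised counts in control, 628, 623 and 851 in DEX, 895, 1748 and 646 at 1 week and 792, 999 and 1057 at 4 weeks. The control pools lay within a narrow band, and all 3 pools at 4 weeks lay above them, while 1 week pool 2 was 1.65 times the next highest library and pool 3 of that group was below control. The fitted log2 fold change was 0.37 at 4 weeks against control (95% interval -0.37 to 1.11, adjusted p = 0.907, limma). In 1 week against DEX it was 0.53, and 0.13 without pool 2.

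The other members of this role showed the same library on top in most cases. *Canx*, *Pdia3*, *Pdia4*, *Pdia6* and *Ero1lb* were all highest in 1 week pool 2, so that 7 of the 8 members of the role were, and *Ero1l*, an oxidase that recharges the isomerases, was highest in control pool 1. *Pdia6* ranged from 294 in DEX pool 2 to 693 and *Pdia4* from 179 in 1 week pool 3 to 490.2 in pool 2 of the same group. All 8 members were above control in the fitted log2 fold change at 1 week and at 4 weeks, with medians of 0.36 and 0.33 and no call in either. Without 1 week pool 2 the 1 week median was 0.09, with 6 of 8 above control. Control pool 3 was the lowest control pool for *Canx*, *Pdia3*, *Pdia4*, *Pdia6*, *Ero1l* and *Ero1lb*, but not for *Calr* or *P4hb*. *Ero1l* stood at 11.3 there, at 37.2 and 28.5 in control pools 1 and 2, and at 29.0 to 35.8 at 4 weeks.

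The other luminal stress proteins had the widest range within a single group. *Hyou1*, a large HSP70-like chaperone, stood at 89.7, 310.5 and 50.1 normalised counts in the 1 week pools, so its highest and lowest values of all 12 libraries lay in the same group, a 6.19-fold difference. *Sdf2l1*, a partner of the ER J-proteins, was at 106, 269 and 96.1 in these pools against 90.4 to 115 in control. All 4 members of this role were highest in 1 week pool 2.

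*Manf*, a secreted stress-responsive protein, held 101, 143 and 196 normalised counts in control, 119.9, 107 and 128 in DEX, 141, 227 and 201 at 1 week and 118, 186 and 175 at 4 weeks. The 1 week pools all lay above the DEX pools, and control covered most of the range of both. *Manf* was 0.66 (log2) higher in 1 week against DEX (95% interval 0.05 to 1.26, unadjusted p = 0.0359 in limma, adjusted p = 0.413), 0.51 higher without 1 week pool 2 and 0.26 without 1 week pools 2 and 3. *Creld2* lay lower in all 3 DEX pools, at 84.8 to 102, than in control, at 107 to 116, and no other gene of this role separated a pair of groups apart from *Manf*.

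Across all roles 1 week pool 2 held the highest of the 12 values for 25 of 40 members (62.5%). It did so for 14% of all genes tested and for 25.6% of the 9548 genes with a mean above 10, a level that 38 of the 40 members had. The count was 2 of 6 sensors and transcription factors, 1 of 3 ATF4 targets, 7 of 8 lectin chaperones and oxidoreductases, 4 of 4 luminal stress proteins, 4 of 7 degradation genes, 4 of 7 translocon genes and 3 of 5 signal peptidase and oligosaccharyltransferase genes. The median member lay 0.64 above the control mean (log2) in this pool and 0.11 below it in pool 3 of the same group. The median over all genes was -0.08 and 0.05 there. Among genes with a mean above 10, pool 2 was higher than pool 3 by a median of 0.24 (log2), against 0.70 for the members.

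The count depended on how the libraries were scaled. With median ratios in place of TMM, an alternative chosen after seeing the data, 22 members were highest in this pool. With plain CPM it was 6 of 40 (15%), against 2.56% of the genes with a mean above 10, in a library whose TMM factor was the lowest and in which *Pomc* took the largest share of reads. Within the 1 week group 33 members were higher in pool 2 than in pool 3, 13 of them by at least 2-fold, and 60.3% of genes with a mean above 10 were higher in pool 2. The part of the higher *Pomc* share, of the higher *Pcsk2* and *Oacyl* and of the low corticotroph markers of pool 3 in this result was not tested.

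**Figure D2:**
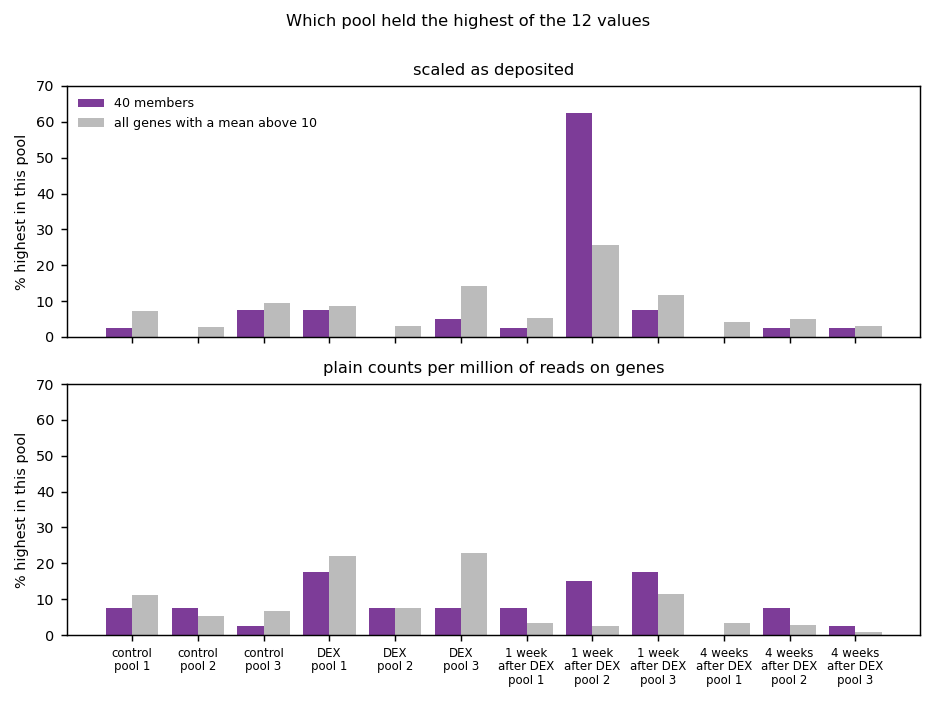
Bars give, for each of the 12 pools, the percentage of the 40 members (purple) and of all genes with a mean above 10 (grey) whose highest value lay in that pool, with the values as deposited above and plain CPM below. As deposited, 1 week pool 2 held 62.5% of members and 25.6% of genes, and with plain CPM 15% and 2.56%.

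The translocon and the enzymes at its exit held most of the members whose 1 week pools all lay above the DEX pools. All 3 pools at 1 week lay above all 3 DEX pools for 8 members (20%; 6.97% of all genes), namely *Manf*, *Derl3*, *Sec61g*, *Ssr4*, *Spcs1*, *Spcs2*, *Sec11c* and *Dad1*, and below them for 0 members (6.87% of all genes). Of these 8 genes 6 belong to the translocon, signal peptidase and oligosaccharyltransferase roles, which have 12 members in all. The median log2 fold change of 1 week against DEX was 0.50 over the 7 translocon genes and 0.63 over the 5 signal peptidase and oligosaccharyltransferase genes, beside 0.03 over all genes. Without 1 week pool 2 these medians were 0.26 and 0.56.

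*Ssr4* (chromosome X, 73787028 to 73790830, plus strand) encodes the delta subunit of the translocon-associated protein complex. Its normalised counts were 212, 269.9 and 402 in control, 204, 206 and 221 in DEX, 301, 540.0 and 475 at 1 week and 262, 314 and 328 at 4 weeks. DEX was the lowest and tightest group, and both withdrawal groups lay above it in every pool. In 1 week against DEX the log2 fold change was 1.02, the highest of the 40, with a 95% interval of 0.41 to 1.63 and an adjusted p of 0.139 in limma (0.0126 in DESeq2). It was 0.85 without 1 week pool 2, 0.94 without pool 3 and 0.52 without both, an alternative chosen after seeing the data in which the remaining pool is assumed to vary like the other groups.

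*Sec11c* encodes a catalytic subunit of the signal peptidase. It held 68.7, 75.4 and 107 normalised counts in control, 55.2, 64.4 and 63.5 in DEX, 102, 102 and 122 at 1 week and 84.3, 88.6 and 101 at 4 weeks. The DEX pools lay below every pool of the other 3 groups. Its log2 fold change was -0.43 in DEX against control (95% interval -0.91 to 0.05), 0.83 in 1 week against DEX (0.35 to 1.31, adjusted p = 0.124) and 0.58 in 4 weeks against DEX (0.10 to 1.06, adjusted p = 0.36, limma). In 1 week against DEX the adjusted p was 0.0123 in DESeq2 and 0.0281 with array weights, but 0.159 in edgeR by quasi-likelihood and 0.211 by likelihood ratio.

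*Sec61g* (chromosome 11, 16500530 to 16508484, minus strand), the gamma subunit of the channel, stood at 105, 123 and 135 normalised counts in control, 95.7, 90.1 and 124 in DEX, 148, 179 and 205 at 1 week and 121, 146 and 148 at 4 weeks. The 1 week pools were above all control and all DEX pools, and the 4 week pools overlapped with every group. *Sec61g* was 0.78 (log2) higher in 1 week against DEX (95% interval 0.29 to 1.27, adjusted p = 0.16, limma) and 0.55 higher in 1 week against control (0.06 to 1.04, adjusted p = 1). Here 1 week pool 3 and not pool 2 was the highest library.

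*Spcs1* (chromosome 14, 30999826 to 31001672, minus strand), an accessory subunit of the signal peptidase, held 184, 197 and 202 normalised counts in control, 166, 179 and 229 in DEX, 273, 306 and 301 at 1 week and 191, 237 and 252 at 4 weeks. The 1 week pools were closely spaced and above all 9 pools of the other groups. *Spcs1* had log2 fold changes of 0.63 in 1 week against DEX (95% interval 0.15 to 1.11, adjusted p = 0.288) and 0.59 in 1 week against control (0.11 to 1.07, adjusted p = 1, limma). Without 1 week pool 2 the former was 0.59. Exons of *Spcs1* overlap those of *Glt8d1* on the opposite strand, and the library kit does not mark strand, so reads of these genes cannot be told apart where they overlap.

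*Sec61b*, the beta subunit of the channel, held 115, 135 and 219.7 normalised counts in control, 104, 124 and 163 in DEX, 159.5, 259.8 and 247 at 1 week and 137, 184 and 179.8 at 4 weeks. *Dad1*, a subunit of the oligosaccharyltransferase, held 326, 354 and 657 in control, 244, 269 and 367 in DEX, 384, 656 and 473 at 1 week and 321, 354 and 446 at 4 weeks. Control pool 3 lay far above the other control pools in both genes, and the 1 week pools of *Dad1* lay above its DEX pools. The log2 fold changes of 1 week against DEX were 0.76 (95% interval 0.14 to 1.39) for *Sec61b* and 0.77 (0.10 to 1.44) for *Dad1*, with adjusted p of 0.324 and 0.373 in limma. Without 1 week pool 2 they were 0.63 and 0.56, and without 1 week pools 2 and 3 they were 0.32 and 0.41.

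Of the other members of these roles, *Ssr1* and *Ssr3*, subunits of the translocon-associated complex, had log2 fold changes of 0.07 and -0.10 in 1 week against DEX, and *Ssr3* lay at 365 to 377 in DEX above its control pools at 197 to 345. *Sec61a1*, the channel itself, was at 304, 648 and 235 in the 1 week pools, with the highest and lowest of its 12 values in pools 2 and 3. All 5 signal peptidase and oligosaccharyltransferase genes had a fitted change below 0 in DEX against control, with a median of -0.11, and above 0 at 1 week against control, with a median of 0.40 (0.17 without 1 week pool 2, all 5 still above 0).

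**Figure D3:**
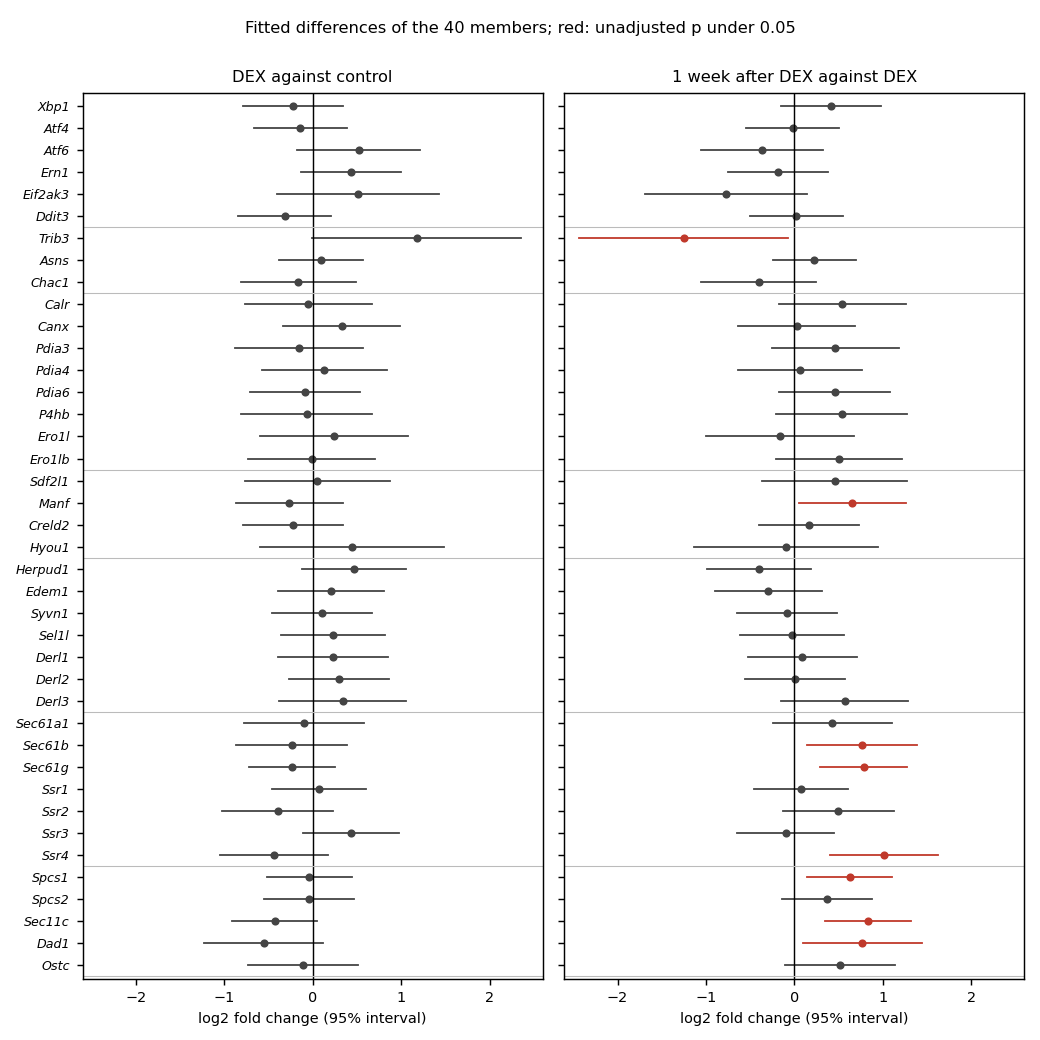
Points are log2 fold changes of the 40 members, in the order of their roles, and bars their 95% intervals from limma, for DEX against control on the left and 1 week after DEX against DEX on the right, with unadjusted p under 0.05 in red. On the left 0 intervals are red and on the right 8, of which *Trib3* lies below 0 and the other 7 above it, beside 6.8% and 10.8% of all genes at that p.

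*Derl3* (chromosome 10, 75893413 to 75895941, plus strand), a derlin of secretory cells that helps extract misfolded chains, had the largest fold change against control of all 40 members in either withdrawal group, and no degradation gene was called. It held 6.45, 3.89 and 5.76 normalised counts in control, 6.71, 6.05 and 7.29 in DEX, 9.32, 13.5 and 7.78 at 1 week and 7.76, 9.85 and 11.6 at 4 weeks, a low level whose smallest value rested on 33 reads. The pools of both withdrawal groups lay above all 6 control and DEX pools. Its fold change (log2) was 0.91 at 1 week against control (95% interval 0.19 to 1.63, adjusted p = 1) and 0.86 at 4 weeks against control (0.14 to 1.58, adjusted p = 0.716, limma).

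*Derl3* is also expressed in plasma cells, and the summed level of the 8 B and plasma cell markers was 174 in 1 week pool 1, with *Igha* alone at 89.3, and 21.4 to 53.3 in the other 11 libraries. The fold change of *Derl3* at 1 week against control (log2) was 0.95 without that pool, 0.69 without 1 week pool 2, which held its highest value, and 0.69 to 1.08 over all single libraries left out. The summed macrophage markers were 19.9 to 37.2 in DEX and 63.3 to 346 in the other groups. Of these *Cd74*, *H2-Aa*, *H2-Ab1* and *C1qa* lay below all other pools in every DEX pool. *Csf1r* was at 9.36 to 12.4 in DEX and 8.70 to 10.7 in control, and *C1qb*, *Ptprc* and *Tyrobp* overlapped between these groups. The summed endothelial markers were 6.29 to 12.02 in DEX and 10.3 to 188 elsewhere. At 4 weeks the gonadotroph and thyrotroph markers summed to 1376 to 1465 against 414 to 899 in the other groups. Of these *Tshb* stood at 442 to 709 at 4 weeks and 41.8 to 306 elsewhere. *Fshb*, *Lhb*, *Gnrhr*, *Trhr* and *Nr5a1* overlapped between the 4 week pools and the others. All 7 endothelial and all 8 macrophage markers had reads in each group, and of the B and plasma cell markers 7 of 8, *Tnfrsf17* being at 0 throughout. The pericyte and fibroblast markers summed to 77.5 to 119 in DEX and 182 to 295 at 4 weeks. The stem and folliculostellate markers summed to 594 to 680 at 4 weeks and 225 to 451 in the other groups. Of the latter markers *Aldoc* and *Aldh1a2* lay above all other pools at 4 weeks. *Sox2*, *Sox9* and *S100b* overlapped with control, and *Cyp2f2* with DEX. The somatotroph and lactotroph markers summed to 116103 to 172976 in DEX and 110641 to 300574 in control. Their sums were 135709 to 332912 at 1 week, highest in pool 2, and 239095 to 386010 at 4 weeks. The part of all these cells in the differences of *Derl3* and of the translocon genes from DEX was not tested.

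*Herpud1*, a scaffold of the degradation complex, was one of the few members above control in every DEX pool. Its normalised counts were 284, 323 and 221 in control, 424, 346 and 367 in DEX, 270.0, 422 and 206 at 1 week and 292, 269 and 279 at 4 weeks, where all pools lay below DEX. It was named in full after its values were seen. *Herpud1* was 0.47 (log2) higher in DEX against control (95% interval -0.12 to 1.06, adjusted p = 0.817, limma). All 7 degradation genes had a fitted change above 0 in DEX against control, with a median of 0.23, and *Edem1*, *Sel1l*, *Syvn1*, *Derl1* and *Derl2* overlapped between these groups. Control pool 3 was the lowest control pool for all of these genes except *Derl3*, and its part in the fitted changes was not tested. *Sel1l* stood at 99.2 in that pool, at 179 and 153 in control pools 1 and 2, and at 154 to 178 in DEX. In 1 week against DEX 3 were above and 4 below 0, and without 1 week pool 2 it was 1 above and 6 below.

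None of the sensors and transcription factors was called. *Xbp1*, whose RNA is cut by IRE1 to yield the active factor, stood at 356, 396 and 320.1 normalised counts in control, 327, 309.5 and 279 in DEX, 382, 576 and 302 at 1 week and 421, 451 and 379.5 at 4 weeks. The 4 week pools lay above all DEX pools, and control overlapped with both. In 4 weeks against DEX *Xbp1* had a log2 fold change of 0.45 (95% interval -0.11 to 1.02, adjusted p = 0.655, limma). Counts per gene do not separate the spliced from the unspliced form.

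*Eif2ak3*, the gene of PERK, held 11.6, 13.5 and 16.2 normalised counts in control, 30.1, 17.7 and 13.8 in DEX, 18.3, 4.84 and 16.5 at 1 week and 20.6, 27.6 and 26.5 at 4 weeks. The 4 week pools lay above all control and all 1 week pools. Between 4 weeks and 1 week the log2 difference was 1.11 (95% interval 0.20 to 2.03, unadjusted p = 0.0205, adjusted p = 0.808, limma), and 0.51 without 1 week pool 2. In that pool *Eif2ak3* had its lowest value of all libraries, from 38 reads, where most other members had their highest.

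*Atf6* and *Ern1* lay above control in all 3 DEX pools. *Ern1* had 19.6 to 20.8 normalised counts in control, 26.4 to 28.5 in DEX and 23.7 to 30.1 at 4 weeks, with a log2 fold change of 0.44 in DEX against control (95% interval -0.13 to 1.00, adjusted p = 0.827, limma). *Atf6* had 24.1 to 52.1 in control and 52.7 to 61.1 in DEX, with the low control value in pool 3. *Atf6*, with 9231 bases of exonic sequence, belongs to the long members that were low in that pool, whereas *Ern1*, with 8173 bases, stood at 20.8 there.

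In each pair of groups the members that separated completely were few. Beside the 8 members of 1 week against DEX, all 3 pools lay higher for 4 members in DEX against control (*Atf6*, *Ern1*, *Herpud1* and *Ssr3*, 10%; 6.61% of all genes), for 4 in 1 week against control (*Derl3*, *Sec61g*, *Spcs1* and *Spcs2*; 3.47%) and for 7 in 4 weeks against control (*Ern1*, *Eif2ak3*, *P4hb*, *Edem1*, *Derl3*, *Sec61a1* and *Ssr3*, 17.5%; 6.77%). They lay higher for 7 in 4 weeks against DEX (*Xbp1*, *Pdia3*, *Derl3*, *Sec61a1*, *Ssr1*, *Ssr4* and *Sec11c*; 9.8%) and for *Eif2ak3* in 4 weeks against 1 week (5.19%). All 3 pools lay lower for *Creld2* and *Sec11c* in DEX against control (6.23%), for 0 members in 1 week (2.61%) and in 4 weeks (6.42%) against control, for *Atf6* and *Herpud1* in 4 weeks against DEX (9.67%), and for *Spcs1* and *Sec11c* in 4 weeks against 1 week (3.72%).

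Neither *Atf4* nor its targets among the members were called. *Atf4*, the factor made when PERK slows translation, held 144, 194 and 207 normalised counts in control, 171, 162 and 157 in DEX, 187, 141 and 158 at 1 week and 199, 119.8 and 141 at 4 weeks, with all groups overlapping. *Ddit3*, the gene of the pro-apoptotic factor CHOP, held 58.3, 66.1 and 74.6 in control, 59.4, 57.3 and 43.8 in DEX, 63.9, 44.2 and 55.3 at 1 week and 58.8, 42.1 and 37.9 at 4 weeks. Its mean was highest in control, although all groups overlapped. The log2 fold change of *Ddit3* was -0.54 at 4 weeks against control (95% interval -1.06 to -0.01, unadjusted p = 0.0455, adjusted p = 0.776, limma). Exons of *Ddit3* overlap *Mars* and *Gm4189* on the opposite strand.

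*Trib3*, a pseudokinase that curbs this arm, was scattered within DEX. It held 9.91, 4.48 and 5.002 normalised counts in control, 13.1, 6.70 and 29.9 in DEX, 6.37, 9.18 and 3.22 at 1 week and 4.07, 6.46 and 11.7 at 4 weeks. DEX pool 3 was more than 2-fold above any other library, and the groups overlapped. *Trib3* had a log2 fold change of 1.18 in DEX against control (95% interval -0.01 to 2.36, adjusted p = 0.736) and of -1.25 in 1 week against DEX (-2.43 to -0.07, adjusted p = 0.426, limma). Without DEX pool 3 the latter was -0.70. *Asns*, asparagine synthetase, and *Chac1*, which degrades glutathione, had changes of 0.09 and -0.16 in DEX against control.

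**Figure D4:**
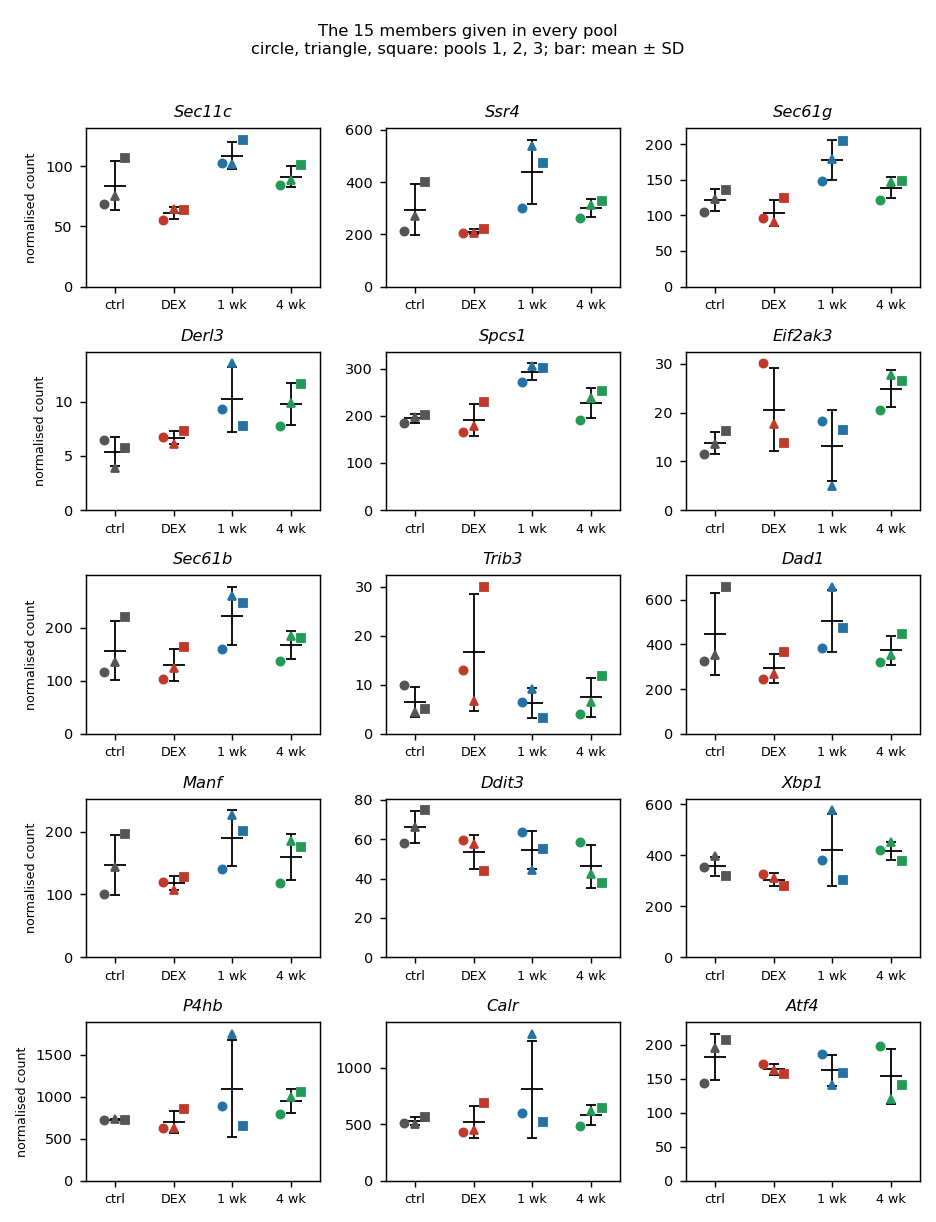
Each panel is a member given in every pool, with the normalised count on the vertical axis from 0 and the 4 groups along the horizontal axis, pools 1, 2 and 3 as circle, triangle and square, and the mean ± SD of 3 pools as bar. The DEX pools of *Sec11c* and *Ssr4* are low and close together, the 1 week pools of *Spcs1* lie between 273 and 306 above all others, and in *Calr* and *P4hb* 1 week pool 2 lies above all other pools.

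Other genes of the same pathways were counted over 5 lists. Of 140 genes tested, *Nucb2*, *Slc7a5* and *Mthfd2* passed an adjusted p of 0.05 in any of the tests. Of 33 other chaperones and folding enzymes 1 was called, *Nucb2*, higher in 1 week against DEX. In the lists of 24 other degradation genes, 30 other translocation, signal peptidase and glycosylation genes and 20 other signalling genes of the unfolded protein response, 0 were called in any test, with 4, 5 and 3 genes (16.7%, 16.7% and 15%) at an unadjusted p under 0.05 in 1 week against DEX (limma), beside 10.8% of all genes. Of 33 amino acid response genes 2 were called in the F test, *Slc7a5* and *Mthfd2*, and each of these F test calls was lost in 6 of 12 fits with 1 library left out. In this list 9 genes (27.3%) had an unadjusted p under 0.05 in 1 week against DEX, 4 higher and 5 lower (limma). In DEX against control it was 7 genes (21.2%, beside 6.8% of all genes), 5 higher and 2 lower.

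*Nucb2* encodes a calcium-binding protein of the secretory pathway. Its normalised counts were 112, 121 and 122 in control, 95.3, 86.7 and 73.6 in DEX, 195, 201 and 154 at 1 week and 120.4, 122 and 129 at 4 weeks. The DEX pools lay below and the 1 week pools above all others, and *Nucb2* rose by a log2 fold change of 1.11 in 1 week against DEX (95% interval 0.65 to 1.56, adjusted p = 0.0303, limma). With 1 library left out in turn the adjusted p ranged from 0.0199 to 0.173, and the call was kept in 3 of 12 fits, those without control pool 1, control pool 3 or 1 week pool 3. Its order of groups, lowest in DEX and highest at 1 week, was that of *Sec11c*, *Ssr4* and *Sec61g*.

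*Slc7a5*, the light chain of an amino acid transporter, and *Mthfd2*, a mitochondrial folate enzyme, are known ATF4 targets, and both belong to the list of genes that the study chose on these samples, so their direction is not independent evidence. *Slc7a5* held 11.3, 21.3 and 23.8 normalised counts in control, 86.2, 66.4 and 221 in DEX, 24.1, 10.8 and 21.5 at 1 week and 35.5, 23.5 and 40.4 at 4 weeks. *Mthfd2* held 54.8, 36.0 and 44.0 in control, 134, 78.2 and 208 in DEX, 55.0, 52.8 and 42.8 at 1 week and 35.7, 33.3 and 37.4 at 4 weeks. In both genes all DEX pools lay above all 9 other pools. DEX pool 3 was the highest in both, and the markers of dissociation stress also summed highest there. The part of that stress in these values was not tested.

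*Slc7a5* rose by 2.59 (log2) in DEX against control (95% interval 1.66 to 3.52, adjusted p = 0.0263, limma) and fell by 2.599 in 1 week against DEX (adjusted p = 0.013). *Mthfd2* was 1.55 higher in DEX against control (0.90 to 2.20, adjusted p = 0.0674) and fell by 1.87 in 4 weeks against DEX (adjusted p = 0.0102, limma). With 1 library left out in turn, the call of *Slc7a5* in DEX against control was kept in 6 of 12 fits (adjusted p 0.0141 to 0.211) and lost without control pool 1, 2 or 3, without DEX pool 1 or 3 or without 4 week pool 1, and that in 1 week against DEX in 10 of 12, lost without DEX pool 1 or 3 (0.0125 to 0.0824). The call of *Mthfd2* in 4 weeks against DEX was kept in 7 of 12 fits (0.00421 to 0.0752) and lost without DEX pool 1 or 3 or 4 week pool 1, 2 or 3. All 4 contrast calls of *Nucb2*, *Slc7a5* and *Mthfd2* were lost when only the groups compared were in the model. Beside these changes *Atf4* itself had a log2 fold change of -0.14 in DEX against control (95% interval -0.66 to 0.39). Of the ATF4 targets among the members, *Asns* had 0.09 (-0.38 to 0.56), *Chac1* -0.16 and *Trib3* 1.18.

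**Figure D5:**
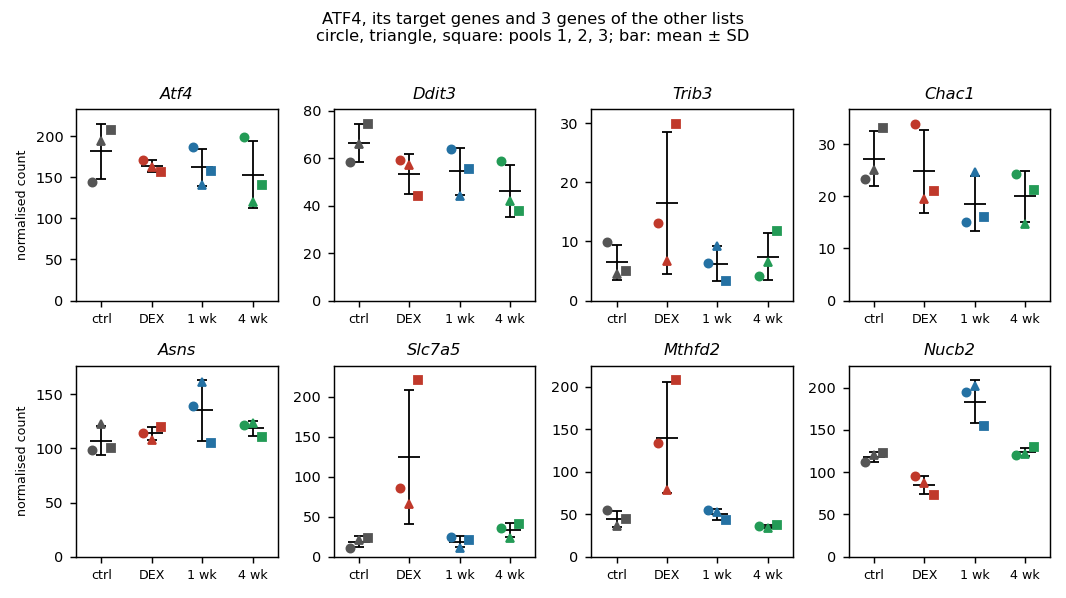
Panels give the normalised count from 0 in the 4 groups for *Atf4*, 4 members that it regulates or that act beside it, and *Slc7a5*, *Mthfd2* and *Nucb2*, with pools 1, 2 and 3 as circle, triangle and square and the mean ± SD of 3 pools as bar. The DEX pools of *Slc7a5* and *Mthfd2* stand above all other pools, those of *Atf4*, *Chac1* and *Asns* do not, and *Nucb2* is lowest in DEX and highest at 1 week.

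The genes with the next smallest F test p in each list had adjusted p of 0.148 or more in that test. *Ppp1r15a*, the phosphatase subunit that restores translation after PERK signalling, held 791, 827 and 1271 normalised counts in DEX against 388 to 634 in control and 204 to 441 at 1 week, with a log2 fold change of -1.505 in 1 week against DEX (adjusted p = 0.0632, limma). *Bbc3*, a pro-apoptotic gene, was at 9.57 to 21.1 in DEX and 4.96 to 6.71 in control. Among degradation genes *Erlec1*, a lectin, lay at 22.1 to 23.5 in DEX and 36.1 to 71.2 at 1 week. *Fkbp10*, a collagen-folding prolyl isomerase, lay at 2.99 to 7.28 in control and 13.4 to 18.9 at 4 weeks, and *Prdx4*, an ER peroxidase, at 61.8 to 102 in DEX and 116 to 174 at 1 week. *Phgdh* and *Psat1*, enzymes of serine synthesis, had log2 fold changes of 1.19 and 0.89 in 4 weeks against DEX (adjusted p = 0.157 and 0.309, limma). *Kdelr3*, a receptor that returns ER proteins, and *Krtcap2*, a subunit of the oligosaccharyltransferase, had adjusted p of 0.545 and 0.622 in the F test.

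Spread within groups was itself uneven. The 1 week group had the largest SD on the log2 scale for 23 of 40 members, and for 43.5% of all genes. DEX had it for 4 members, and for 16.5% of all genes. The median SD of the members was 0.48 at 1 week, 0.28 in control, 0.21 at 4 weeks and 0.15 in DEX. The 1 week mean was the highest of the 4 group means for 24 members, and for 29.2% of all genes. The DEX mean was the lowest for 18 members, and for 31.2% of all genes. *Sec11c*, *Sec61g* and *Spcs1*, whose 1 week pools stood clear of DEX, were in 1 week pool 2 at 0.838, 0.876 and 1.02 times their value in pool 3. *Hyou1*, *Sdf2l1*, *Sec61a1* and *Pdia4* were 2.73-fold to 6.19-fold higher in pool 2 than in pool 3.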

How the data were processed

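RNA of sorted eGFP-positive cells was amplified with SMART-V4 and Nextera XT kits and sequenced. The authors trimmed reads with Trim Galore 0.6.5, aligned them to GRCm38 with STAR 2.7.1a, counted them per gene with featureCounts 2.0.0 (minimum mapping quality 20), and deposited a signal table of gene counts scaled by edgeR to the TMM-adjusted library size, a unit that had been taken to be plain CPM when the tests were chosen. Counting was reverse-stranded, whereas the kit does not mark strand, so reads of overlapping antisense genes cannot be told apart (10 of the 40 members have such exons).

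Whole reads were recovered from all 271881 values above 0 (100% within 1e-06 reads). The main test was limma 3.58.1 in R 4.3.3 (empirical Bayes with trend) on log2(value + 0.1) of the 24736 genes above 0.1 in at least 3 libraries, with all 12 libraries in 1 model without covariates. Fold changes are on this scale, where low genes appear to change less than they do. Benjamini-Hochberg adjustment ran over all genes tested. Alternatives were other pseudocounts, filters and scalings, array weights, a replicate block, each library left out, fits of only the groups compared, and edgeR 4.0.16 and DESeq2 1.42.0 on the recovered reads. The procedure was tested on simulated data. The members and lists were chosen with earlier results of these data known. All members are named with their role. Values in every library are given for the 10 members with the smallest F test p and for *Xbp1*, *Atf4*, *Ddit3*, *Calr* and *P4hb*, and of the 5 other lists the called genes and the next 2 by F test p are named, except 1 gene that is not reported here. Genes named beyond this, such as *Hyou1*, *Sdf2l1*, *Herpud1* and *Ern1* with their values, were chosen after these were seen. RefSeq promoters (GRCm38.p6) were matched by symbol or synonym.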

Additional observations from a re-analysis of the deposited data

How the results depend on the processing

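No member was called in limma under any pseudocount, filter, scaling or left-out library, so with 1 library left out in turn the number of members called was 0 to 0 in each of the 7 tests. Array weights called 1 member, *Sec11c*, in each of the F test, 1 week against DEX and 4 weeks against DEX, and DESeq2 called 4 in 1 week against DEX (adjusted p = 0.0126 for *Ssr4*, 0.0423 for *Spcs1*, 0.0194 for *Sec61g* and 0.0123 for *Sec11c*). The cause was not tested. With 1 library left out, the median log2 fold change of the members ran from -0.08 to 0.07 in DEX against control, from 0.09 to 0.43 at 1 week and 0.16 to 0.31 at 4 weeks against control, from 0.07 to 0.43 at 1 week and 0.12 to 0.33 at 4 weeks against DEX, and from -0.22 to 0.18 in 4 weeks against 1 week. The last was also -0.22 without control pool 3 and 1 week pool 3 together, an alternative chosen after seeing the data. Members highest in 1 week pool 2 numbered 25, 6 with plain counts scaled to reads on genes. The 15 members given in every library, each in the 1 contrast that was followed, had the same sign in all 25 alternatives. These refit some or all of the same libraries, so a constant sign is not independent evidence. The other members and contrasts were not followed in this way.

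Over all genes the calls moved by more than 1.5 times with the method. The F test called 78 genes, and 1069 with array weights, 158 in edgeR by quasi-likelihood, 1043 by likelihood ratio and 734 in DESeq2. DEX against control called 30 genes, 49 and 54 with pseudocounts of 0.5 and 1, 166 with array weights, 272 by likelihood ratio, 190 in DESeq2 and 1 with only these groups in the model. In 1 week against DEX 107 became 566, 710, 573 and 0 in the same order from array weights on, and in 4 weeks against DEX 216 became 1300, 664, 655 and 21.

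Between same-numbered pools the deviations had an r of -0.29 to 0.40 (18 pairs, median 0.056). Between pools of different number r was -0.27 to 0.38 (36 pairs, median -0.014), so the numbers were not taken to pair the samples. The highest r was that of control pool 3 with 1 week pool 3, and whether these pools shared a batch was not tested. With the replicate block 0 members were called in every test and 85 genes in the F test. With 3 pools a group the 95% interval of a member reached a median of 0.62 (log2) to either side, which limits what a missed threshold says.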
